A study of Mus musculus with 2 samples.

Results

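The circadian clock genes described here are Arntl, Clock, Per1, Per2, Per3, Cry1, Cry2, Nr1d1, Nr1d2 and Dbp. They were taken from a list by symbol, and all 10 were found among the 32285 genes of the matrices. Their transcripts were counted in single cells of hindlimb muscle from female C57Bl/6J mice aged 24 months. The first library came from muscle that had received 3 intramuscular injections of all-trans retinoic acid (ATRA) together with CD3254, an agonist of the nuclear receptor RXR-alpha, and BMS961, an agonist of RAR-gamma (ATRA+agonist). The other library was made from muscle given DMSO in saline on the same schedule (DMSO vehicle). Each group was 1 library that pooled live-sorted cells of the quadriceps and gastrocnemius of 2 mice. Thus each difference below is a difference between 2 libraries, and treatment, mice, harvest and library cannot be told apart. The labels name no transgene or deletion for either group, and the muscle was taken 3 days after the last injection in both. The question asked of these genes was whether the state of the clock differed between the libraries in each cell type.

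The mammalian clock is a feedback loop of transcription. The proteins of Arntl (BMAL1) and Clock bind E-box elements and activate the Per and Cry genes, whose proteins accumulate and repress BMAL1-CLOCK. A further loop runs through the nuclear receptors REV-ERB-alpha and REV-ERB-beta (Nr1d1 and Nr1d2), which repress Arntl, and through Dbp, an output factor that binds D-box elements. In peripheral tissues of mice, Arntl transcripts peak at nearly the opposite time of day from Dbp and Nr1d1 transcripts. A clock phase needs samples over the day. Each library is 1 time point, and the hour of harvest was not given in the sources used here, so the values describe relative levels and not a phase.

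Sequences near gene starts are shown because the members are known to be controlled through such elements. RefSeq windows on GRCm38.p6, which run from 250 bases before to 50 bases after a start, were given for 9 of the 10 members (13 windows). Per2 is named only. Both strands were searched for the E-box CACGTG, the E-box-like CACGTT, the D-box TTATGTAA, the nuclear receptor hexamer AGGTCA and the cAMP response element TGACGTCA. The E-box and the cAMP response element read the same on both strands and were counted once. Of all 32851 windows, 7.15% held the E-box, 4.68% the E-box-like letters, 0.938% the D-box, 16.3% the hexamer and 1.79% the cAMP response element. At least 1 of the motifs was found in 8 of the 9 members with a window. Some members had more than 1 window. The share of all genes with any of these motifs was not counted, so nothing is read from this number. The stretches below show the matches in capitals, with 30 bases on each side where the window allowed it. Where the match lies on the opposite strand, the capitals read AACGTG for CACGTT and TGACCT for AGGTCA.
Per1: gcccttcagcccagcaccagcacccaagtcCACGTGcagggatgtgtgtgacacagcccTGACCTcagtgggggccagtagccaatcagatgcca
Cry1: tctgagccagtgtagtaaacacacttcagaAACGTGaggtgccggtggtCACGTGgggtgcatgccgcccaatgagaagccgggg
Nr1d1: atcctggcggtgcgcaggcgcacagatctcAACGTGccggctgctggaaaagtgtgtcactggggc
Per3: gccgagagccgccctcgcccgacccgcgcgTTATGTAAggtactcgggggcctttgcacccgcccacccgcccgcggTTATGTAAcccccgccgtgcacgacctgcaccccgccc
Arntl: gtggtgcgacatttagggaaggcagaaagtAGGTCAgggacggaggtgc

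The Per1 stretch lies at chr11:69098753-69098847 on the plus strand, with the E-box 166 bases before the start of that transcript and a hexamer 137 bases before it. The Cry1 stretch, at chr10:85185079-85185163 on the minus strand, holds an E-box-like match and an E-box, which begin 79 and 60 bases before the start. The Nr1d1 stretch, at chr11:98775370-98775435 on the minus strand, has an E-box-like match 28 bases before the start. Per3, at chr4:151044786-151044900 on the minus strand, holds the D-box letters at both 205 and 158 bases before the start. The stretch of Arntl, at chr7:113207512-113207560 on the plus strand, is from the second of its windows and has a hexamer 31 bases after the start. Cry2 had an E-box-like match 166 bases before its start, and Nr1d2 and Clock had a hexamer 77 and 119 bases before a start. The Dbp window held none of these letters, and no window of a member held the cAMP response element. A match describes letters in the window and does not show that a factor bound there.

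By the GENCODE M21 annotation of GRCm38, Arntl lies on chromosome 7 (113207465 to 113314126), Clock on chromosome 5 (76209868 to 76304792), Per1 on chromosome 11 (69095217 to 69109960) and Per2 on chromosome 1 (91415982 to 91459324). Per3 lies on chromosome 4 (151003652 to 151044665), Cry1 on chromosome 10 (85131700 to 85185064) and Cry2 on chromosome 2 (92403646 to 92434043). Nr1d1 lies on chromosome 11 (98767932 to 98775333), Nr1d2 on chromosome 14 (18204054 to 18239127) and Dbp on chromosome 7 (45705088 to 45710203). Opposite-strand genes overlap 4 members, namely Thra at Nr1d1, Sphk2 at Dbp, Gm45355 at Arntl and D930015M05Rik at Cry2. Per3 and Clock overlap genes on their own strand (Camta1 at Per3, and Ube2n-ps1 and Gm43658 at Clock). The strand setting of the counting was not given in the sources used here, so counts of these 6 members may include reads of the overlapping genes.

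After filtering, 6907 cells with ATRA+agonist and 6953 with DMSO vehicle were kept, with a median of 4676 and 4842 unique molecular identifiers (UMIs, each marking 1 transcript molecule) per cell. Both libraries held 43 cell barcodes in common, 9 of them among kept cells. Cells were clustered without the clock genes and named from marker genes. Classes with at least 100 cells per library were compared, which were endothelial-like (2598 cells with ATRA+agonist and 2480 with DMSO vehicle), fibro-adipogenic progenitor-like (FAP-like, 1287 and 1598), muscle stem cell-like (MuSC-like, 413 and 530), monocyte or macrophage-like (519 and 402), tenocyte-like (162 and 502), smooth muscle or pericyte-like (237 and 311), glial-like (134 and 400) and T or NK cell-like (300 and 108) cells. Most endothelial-like cells with ATRA+agonist came from a cluster led by Aqp1 and Kdr (1619 cells, against 716 with DMSO vehicle), while with DMSO vehicle the most came from a cluster led by the interferon-response genes Cd274 and Gbp4 (943, against 70). In the glial-like class, a cluster led by Gm20754 and Csmd3 held 39 cells with ATRA+agonist and 182 with DMSO vehicle. Levels are given per 1000000 UMIs of the class (CPM) with exact Poisson 95% intervals. A ratio divides the level with ATRA+agonist by that with DMSO vehicle and is given as its log2, with an exact conditional 95% interval. Intervals cover counting error only and leave out differences between mice, and with 1 library per group no test was made.

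Clock gene UMIs were rare in barcodes that should lack them. Barcodes under 300 genes had 96.4% and 96.6% of their UMIs from hemoglobin genes, as in red blood cells, which should lack clock transcripts. Their median depth was 5675.5 UMIs with ATRA+agonist and 6884.5 with DMSO vehicle. A UMI of any single member was found in at most 0.206% of them. Among kept cells, Per2, the member with the lowest share with ATRA+agonist, had a UMI in 4.34% of cells there and in 9.22% with DMSO vehicle.

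**Figure D1:**
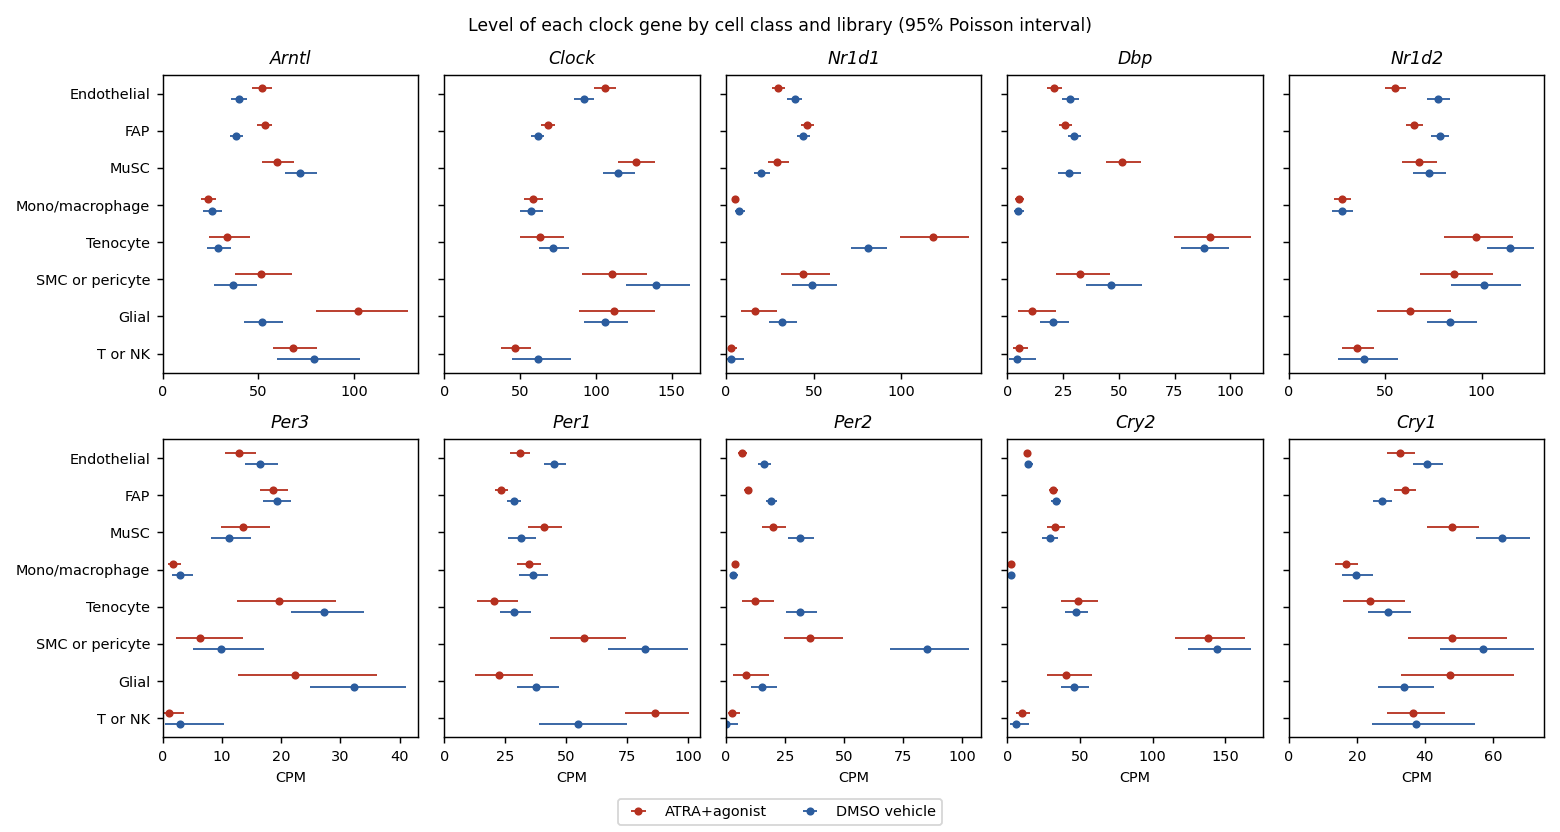
Level of each of the 10 clock genes in CPM (horizontal axes, scaled per gene and starting at 0) in the 8 compared cell classes, with ATRA+agonist in red and DMSO vehicle in blue. Points are sums over the cells of 1 library and bars are exact 95% Poisson intervals. Dbp and Nr1d1 sit farthest to the right in tenocyte-like cells and near 0 in macrophage-like and T or NK cell-like cells.

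The activators were expressed in every class. Clock ranged from 46.5 CPM in T or NK cell-like cells to 126 CPM in MuSC-like cells with ATRA+agonist. With DMSO vehicle it ranged from 57.1 CPM in macrophage-like cells to 140 CPM in the smooth muscle or pericyte-like class. Neighbors in this order of classes mostly overlapped in their intervals, with 6 of 7 neighboring pairs overlapping in each library. The Clock ratio between the libraries was small, lying between -0.41 and 0.21 over the 8 classes. Its interval was above 0 in endothelial-like cells (0.21, 0.06 to 0.35) and in FAP-like cells (0.15, 0.01 to 0.29), and included 0 in the other 6. Without the cluster led by Cd274 and Gbp4, the endothelial-like interval of Clock also included 0 (0.15, -0.02 to 0.32). The median ratio of all genes was 0.08 in endothelial-like and 0.01 in FAP-like cells. In MuSC-like cells 1 cell with ATRA+agonist held 31 of the 419 Clock UMIs, whereas no cell held more than 9 with DMSO vehicle.

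Arntl, the partner of CLOCK and the member of the pair whose transcript is strongly rhythmic, had a higher level with ATRA+agonist in 3 classes and a lower level in 1. In endothelial-like cells it was 51.9 CPM (46.9 to 57.2) with ATRA+agonist and 39.7 CPM (35.5 to 44.2) with DMSO vehicle, a log2 ratio of 0.39 (0.17 to 0.60). FAP-like cells had 53.2 CPM (49.4 to 57.3) and 38.2 CPM (35.0 to 41.7), a log2 ratio of 0.48 (0.31 to 0.65). The intervals of the levels did not overlap in either class, and ATRA+agonist was the higher library in both. The endothelial-like difference was not present in the largest cluster, led by Aqp1 and Kdr, where the Arntl ratio was 0.08 (-0.21 to 0.39), and without the cluster led by Cd274 and Gbp4 it was 0.25 (0.0064 to 0.50). In the FAP-like clusters led by Cxcl14, Gdf10 and Sema3c it was 0.48, 0.53 and 0.36, each with an interval above 0. Glial-like cells had the largest Arntl difference, with 102 CPM (79.8 to 128) against 52.1 CPM (42.6 to 63.0) and a log2 ratio of 0.97 (0.52 to 1.41). Within the glial-like class, the cluster led by Gm20754 and Csmd3 had a ratio of 1.74 (1.05 to 2.43), while the other glial-like cluster, of 95 and 218 cells, had 0.42 (-0.19 to 1.02). MuSC-like cells were the reverse. Arntl was at 59.6 CPM (51.6 to 68.6) with ATRA+agonist and 71.8 CPM (63.7 to 80.6) with DMSO vehicle, the level intervals overlapped, and the ratio was -0.27, with an interval of -0.54 to just below 0. The other 4 classes had ratios whose intervals included 0. Arntl was at 23.7 CPM (19.9 to 28.0) and 25.7 CPM (21.0 to 31.2) in macrophage-like cells, the lowest class in both libraries. It was at 33.5 and 29.0 CPM in tenocyte-like, 51.1 and 36.7 CPM in smooth muscle or pericyte-like and 68.3 and 79.1 CPM in T or NK cell-like cells. Ordered by level, all 7 neighboring pairs of classes overlapped in their intervals with ATRA+agonist. With DMSO vehicle 6 of 7 overlapped, the exception being the step from MuSC-like to glial-like cells.

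Among the repressors, Per2 stood at a lower level with ATRA+agonist in the 5 classes where it had at least 50 UMIs. Per2 encodes a PERIOD protein that binds CRY proteins and holds BMAL1-CLOCK inactive. Endothelial-like cells had 6.98 CPM (5.23 to 9.12) with ATRA+agonist and 16.2 CPM (13.6 to 19.2) with DMSO vehicle. FAP-like cells had 9.31 CPM (7.73 to 11.1) and 19.1 CPM (16.9 to 21.6). MuSC-like cells had 19.9 CPM (15.4 to 25.3) and 31.3 CPM (26.1 to 37.4). The level intervals of the libraries did not overlap in any of these classes. Tenocyte-like cells had 12.3 CPM (6.86 to 20.2) against 31.3 CPM (25.3 to 38.4). Smooth muscle or pericyte-like cells, where Per2 was highest in both libraries, had 35.5 CPM (24.6 to 49.6) against 84.9 CPM (69.4 to 103). Here too the intervals were apart, with the DMSO vehicle library higher.

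The Per2 log2 ratio was -1.22 (-1.70 to -0.75) in endothelial-like, -1.04 (-1.36 to -0.72) in FAP-like, -0.66 (-1.11 to -0.21) in MuSC-like, -1.35 (-2.25 to -0.56) in tenocyte-like and -1.26 (-1.86 to -0.69) in the smooth muscle or pericyte-like class. All 5 intervals were below 0, with a median of -1.22. Over all kept cells the ratio was -1.13 (-1.31 to -0.95), with 366 UMIs counted in the treated and 779 in the vehicle library. The share of endothelial-like cells with a Per2 UMI was 1.89% (1.40 to 2.49) and 4.84% (4.03 to 5.76), by exact Clopper-Pearson intervals, at median depths of 2795.5 and 3171 UMIs. Thinned to 1000 UMIs per cell, with shallower cells left out, which leaves 2080 and 2220 endothelial-like cells, the shares were 0.769% and 1.49%. The difference was also present inside clusters. Among endothelial-like cells, those of the Aqp1 and Kdr cluster had a Per2 ratio of -0.95 (-1.63 to -0.26), and the FAP-like clusters led by Cxcl14, Gdf10 and Sema3c had -0.92, -0.88 and -1.81, each with an interval below 0. Without the endothelial-like cluster led by Cd274 and Gbp4, the endothelial-like ratio was -0.93 (-1.49 to -0.37). Per2 had under 50 UMIs over both libraries in macrophage-like cells (22 and 12), glial-like cells (6 and 31) and T or NK cell-like cells (5 and 0), and was not counted there. In that order its levels were 3.77 against 2.97 CPM, 8.37 against 15.4 CPM and 2.47 against 0 CPM, with overlapping intervals. The exact interval of the 0 UMIs in T or NK cell-like cells reached 5.31 CPM.

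Per1, which encodes a second PERIOD protein and also responds quickly to glucocorticoid and cAMP signals, did not differ in the same direction as Per2 in all classes. It was lower with ATRA+agonist in endothelial-like cells, at 30.9 CPM (27.1 to 35.1) against 45.2 CPM (40.7 to 49.97). FAP-like cells had 23.2 CPM (20.7 to 25.9) against 28.5 CPM (25.7 to 31.5), where the level intervals overlapped slightly. The ratios were -0.55 (-0.79 to -0.31) and -0.30 (-0.52 to -0.08), with -0.52 (-1.02 to -0.04) in the smooth muscle or pericyte-like class. MuSC-like and T or NK cell-like cells went the other way. MuSC-like cells had 41.0 CPM (34.4 to 48.5) with ATRA+agonist against 31.6 CPM (26.3 to 37.6), a ratio of 0.38 (0.01 to 0.74) whose level intervals overlapped. Without the smaller MuSC-like cluster the interval of this ratio included 0 (0.35, -0.01 to 0.72). T or NK cell-like cells had 86.6 CPM (74.3 to 100.5) against 54.7 CPM (38.7 to 75.0), a ratio of 0.66 (0.15 to 1.21) with level intervals that overlapped slightly. After thinning to 1000 UMIs the sign in T or NK cell-like cells turned, to -0.55. The makeup of this class also differed, with 96 of 300 and 60 of 108 cells in a cluster led by Ccl5.

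Per3, the remaining PERIOD gene, had no class with an interval apart from 0. Its ratio lay between -0.53 in glial-like and 0.29 in MuSC-like cells over the 5 classes with enough UMIs. Its level was highest in glial-like cells in both libraries, at 22.3 CPM (12.8 to 36.3) and 32.2 CPM (24.9 to 41.1), and all neighboring classes overlapped. In T or NK cell-like cells only 2 Per3 UMIs were counted in each library.

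The CRYPTOCHROME genes, whose proteins are the direct repressors of BMAL1-CLOCK, differed from each other. Cry1 had intervals on both sides of 0. FAP-like cells had 34.0 CPM (30.9 to 37.3) with ATRA+agonist and 27.3 CPM (24.6 to 30.3) with DMSO vehicle, a ratio of 0.32 (0.11 to 0.52) with level intervals apart. In endothelial-like cells Cry1 was at 32.8 CPM (28.8 to 37.1) and 40.7 CPM (36.5 to 45.2), with a ratio of -0.31 (-0.55 to -0.07). The level intervals overlapped there, and after thinning to 1000 UMIs the ratio was 0.06. MuSC-like cells had 47.9 CPM (40.7 to 55.9) against 62.7 CPM (55.1 to 71.0), a ratio of -0.39 (-0.68 to -0.09) with slightly overlapping level intervals. In the other 5 classes the interval included 0.

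Cry2 differed between cell classes far more than between libraries. It was highest in smooth muscle or pericyte-like cells, at 138 CPM (115 to 163) with ATRA+agonist and 145 CPM (124 to 167) with DMSO vehicle, and lowest in macrophage-like cells, at 2.57 CPM (1.44 to 4.24) and 2.72 CPM (1.36 to 4.87). The step from smooth muscle or pericyte-like to tenocyte-like cells, next in order, was larger than the counting intervals in both libraries. Between the libraries, the Cry2 ratio lay within -0.17 and 0.18 in the 6 classes with enough UMIs, and every interval included 0. For FAP-like cells the interval was -0.27 to 0.13.

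The REV-ERB genes had their highest level in tenocyte-like cells. Nr1d1 was at 118 CPM (99.2 to 139) with ATRA+agonist and 80.9 CPM (71.0 to 91.8) with DMSO vehicle there, and these intervals did not overlap. The ratio was 0.54 (0.23 to 0.84). In MuSC-like cells Nr1d1 was at 29.2 CPM (23.7 to 35.6) and 19.96 CPM (15.8 to 24.9), a ratio of 0.55 (0.11 to 0.997) with level intervals that overlapped. Endothelial-like cells had 29.7 CPM (26.0 to 33.9) and 39.1 CPM (35.0 to 43.6), with intervals apart in the opposite direction and a ratio of -0.39 (-0.65 to -0.15). Glial-like cells had 12 and 64 UMIs and a ratio of -0.92 (-1.95 to -0.02). That ratio was not split by cluster, though the makeup of the class differed between the libraries. FAP-like cells, which had the most Nr1d1 UMIs (608 and 585), had a ratio of 0.08 (-0.09 to 0.25). In T or NK cell-like cells only 6 and 2 Nr1d1 UMIs were found.

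Nr1d2 had a ratio below 0 in 7 of 8 classes, mostly small. Its interval was below 0 in endothelial-like cells, with 55.1 CPM (49.99 to 60.7) against 77.5 CPM (71.6 to 83.7) and a ratio of -0.49 (-0.67 to -0.31), and in FAP-like cells, with 65.1 CPM (60.8 to 69.6) against 78.2 CPM (73.5 to 83.1) and a ratio of -0.27 (-0.40 to -0.13). The level intervals were apart in both classes. In MuSC-like cells Nr1d2 did not follow Nr1d1, with a ratio of -0.11 (-0.37 to 0.15).

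Dbp, the PAR bZIP output factor, was higher with ATRA+agonist in MuSC-like cells and lower in endothelial-like cells. MuSC-like cells had 51.5 CPM (44.1 to 59.8) with ATRA+agonist and 27.5 CPM (22.6 to 33.2) with DMSO vehicle, a ratio of 0.90 (0.55 to 1.26) from 171 and 109 UMIs. The level intervals did not overlap. The UMIs were spread over many cells, with 108 of 413 cells (26.2%, 22.0 to 30.7) and 86 of 530 cells (16.2%, 13.2 to 19.6) holding at least 1 and no cell holding more than 5. The MuSC-like cells with ATRA+agonist were somewhat deeper (median 7432 against 6460.5 UMIs). Thinned to 1000 UMIs, 4.89% of 409 and 2.26% of 530 cells had a Dbp UMI. Endothelial-like cells had 20.9 CPM (17.8 to 24.4) against 28.1 CPM (24.7 to 32.0), a ratio of -0.43 (-0.73 to -0.13) with level intervals apart. In the cluster led by Aqp1 and Kdr the ratio was -0.16 (-0.64 to 0.33), and without the cluster led by Cd274 and Gbp4 the interval also included 0 (-0.33, -0.67 to 0.02). FAP-like cells had 25.9 and 29.9 CPM and a ratio of -0.21, whose interval reached from -0.42 to just above 0. Tenocyte-like cells had the highest level, 90.7 CPM (74.6 to 109) and 88.3 CPM (77.9 to 99.7), with overlapping intervals. The ratio was 0.04 (-0.29 to 0.36). With DMSO vehicle Dbp was separated from the next class by more than the intervals at 3 steps, from tenocyte-like to smooth muscle or pericyte-like, on to FAP-like, and from glial-like to macrophage-like cells. With ATRA+agonist the step from tenocyte-like to MuSC-like cells was the 1 of 7 that exceeded the intervals. Macrophage-like cells had 5.14 and 4.70 CPM and T or NK cell-like cells 4.95 and 4.32 CPM, from 30 and 19 and from 10 and 3 UMIs.

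**Figure D2:**
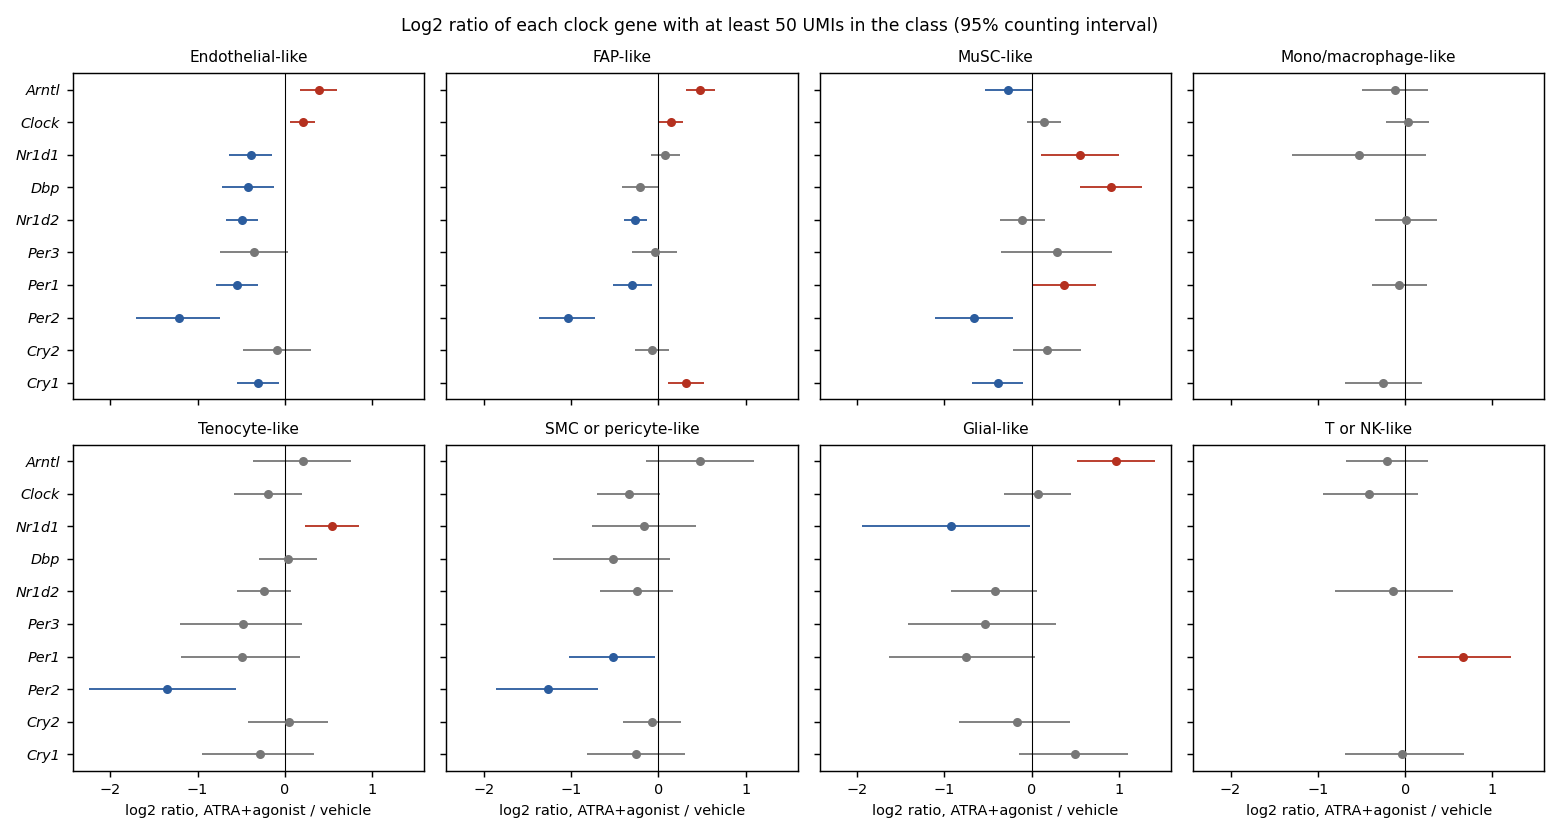
Log2 ratio (ATRA+agonist over DMSO vehicle, horizontal axes) of each clock gene with at least 50 UMIs in the class, 1 panel per cell class, with exact 95% counting intervals. Red marks an interval above 0, blue an interval below 0 and gray an interval that includes 0. Per2 is below 0 in all 5 classes where it is drawn, while Arntl and Dbp sit on opposite sides in MuSC-like cells from those in endothelial-like cells.

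The members past a 1.5-fold difference were few, and their number was read against all genes with at least 50 UMIs in the same class. Of 80 pairs of member and class, 68 had enough UMIs. In 3 pairs the member was past 1.5-fold higher with ATRA+agonist and in 7 it was past 1.5-fold lower. In endothelial-like cells 0 members were higher and 1 of 10 (Per2) was lower, against 5.87% and 4.60% of all genes. FAP-like cells had 0 higher and 1 of 10 (Per2) lower, against 3.01% and 6.31%. In MuSC-like cells 1 of 10 (Dbp) was higher and 1 of 10 (Per2) lower, against 6.43% and 4.61%. A single gene of 10 is close to these backgrounds, so nothing is read from the number of members.

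In tenocyte-like cells 0 of 10 were higher and 1 (Per2) was lower, against 5.58% and 9.39% of genes. Among smooth muscle or pericyte-like cells 0 of 9 were higher and 1 (Per2) was lower, against 6.00% and 7.29%. Glial-like cells had 1 of 8 (Arntl) higher and 2 (Per1 and Nr1d1) lower, against 6.77% and 9.03%. In macrophage-like cells 0 of 6 members passed the fold in either direction, against 3.74% and 3.83%. In T or NK cell-like cells 1 of 5 (Per1) was higher and 0 were lower, against 9.97% and 10.5%. Over all kept cells, where the mix of classes also enters, 0 of 10 were higher and 1 (Per2) was lower, against 6.55% and 10.4%. The median member ratio was -0.37 in endothelial-like cells, where the median of all genes was 0.08. It was 0.16 in MuSC-like cells, where the median of all genes was 0.04.

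Intervals apart from 0 were common among all genes, so they were read against the same genes. Of the 68 pairs, 11 intervals were above 0 and 16 were below 0. In endothelial-like cells 2 of 10 members had an interval above 0 and 6 below 0, against 22.8% and 13.9% of all genes. FAP-like cells had 3 and 3 of 10, against 17.7% and 17.0%. MuSC-like cells also had 3 and 3 of 10, against 14.1% and 12.3%. Endothelial-like cells had the most members below 0, namely Per1, Per2, Cry1, Nr1d1, Nr1d2 and Dbp. Without the cluster led by Cd274 and Gbp4, which differed in size between the libraries, the endothelial-like intervals of Dbp and Clock included 0. Those of Per1, Per2, Cry1, Nr1d1 and Nr1d2 stayed below 0, though the sign of Cry1 turned after thinning. Tenocyte-like cells had 1 and 1 of 10, against 10.1% and 12.4%. The smooth muscle or pericyte-like class had 0 and 2 of 9, against 9.51% and 10.5%, and glial-like cells had 1 and 1 of 8, against 9.64% and 10.5%. Macrophage-like cells had 0 of 6 in either direction, against 12.6% and 11%, and T or NK cell-like cells had 1 and 0 of 5, against 11.9% and 14.5%. Members of these smaller classes were few on either side. Over all kept cells 1 and 6 of 10 were above and below 0, against 25.8% and 28.9%.

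Next, Dbp was set against Arntl within the same cells. Since these genes peak at nearly opposite times, the ratio of their UMIs follows the time of day in a running clock, and it does not depend on how the libraries were scaled. The contrast is the log2 of the Dbp to Arntl odds with ATRA+agonist over those with DMSO vehicle. In MuSC-like cells 171 Dbp and 198 Arntl UMIs were counted with ATRA+agonist, and 109 and 284 with DMSO vehicle. That gives a contrast of 1.17 (0.72 to 1.62), toward Dbp. Endothelial-like cells had 159 and 394 UMIs against 236 and 333, a contrast of -0.81 (-1.18 to -0.44), toward Arntl. FAP-like cells also lay toward Arntl, with 340 and 698 against 399 and 509 and a contrast of -0.69 (-0.96 to -0.41). MuSC-like cells were on the other side of 0 from endothelial-like and FAP-like cells of the same libraries. The difference between classes was not tested, since each class has 1 value.

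The remaining classes had fewer UMIs. Smooth muscle or pericyte-like cells had a contrast of -1.002 (-1.93 to -0.08), and glial-like cells -1.83 (-3.21 to -0.61). In the glial-like class, the cluster led by Gm20754 and Csmd3 had 1 Dbp and 32 Arntl UMIs against 35 and 46. The other glial-like cluster lay on the other side of 0, at 0.75, with an interval that included 0 (-1.17 to 2.70). Thinning reversed the glial-like contrast to 1.18, from 4 and 6 UMIs against 5 and 17. Tenocyte-like cells had -0.17 (-0.82 to 0.50), macrophage-like cells 0.25 (-0.72 to 1.24) and T or NK cell-like cells 0.41 (-1.62 to 2.96), with intervals that included 0.

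Inside clusters the MuSC-like and FAP-like contrasts kept their sides. The larger MuSC-like cluster, led by Hs6st3, Asb5 and Pax7, had 1.26 (0.80 to 1.72), while the smaller held 1 and 0 Dbp UMIs and gives no value. The FAP-like clusters led by Cxcl14, Gdf10 and Sema3c had -0.80 (-1.20 to -0.40), -0.63 (-1.17 to -0.09) and -0.34 (-0.90 to 0.22). Within the endothelial-like class, the cluster led by Aqp1 and Kdr had -0.25 (-0.82 to 0.33), an interval that included 0. The cluster led by Cd274 and Gbp4 had -2.12 (-4.58 to -0.24) from 3 and 15 UMIs against 106 and 122. Leaving that cluster out gave an endothelial-like contrast of -0.58 (-1.01 to -0.15). The shallowest endothelial-like cluster had -2.57 (-4.83 to -0.56) from 15 and 17 UMIs against 21 and 4. Leaving out only this shallowest cluster gave -0.77 (-1.16 to -0.39), and the 2 clusters were not left out together. The remaining endothelial-like clusters had contrasts of -0.65, 1.13 and 1.49, each with an interval that included 0. Dbp, Nr1d1, Nr1d2 and Per3 were also summed against Arntl. The contrast was then 0.57 (0.24 to 0.89) in MuSC-like cells, -0.83 (-1.07 to -0.58) in endothelial-like cells and -0.61 (-0.80 to -0.42) in FAP-like cells. The sum includes Dbp itself, so it is not separate from the Dbp contrast. In MuSC-like cells the other summed genes had ratios of 0.55 (Nr1d1), 0.29 (Per3) and -0.11 (Nr1d2). Per2, at -0.66 there, was not in the sum.

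**Figure D3:**
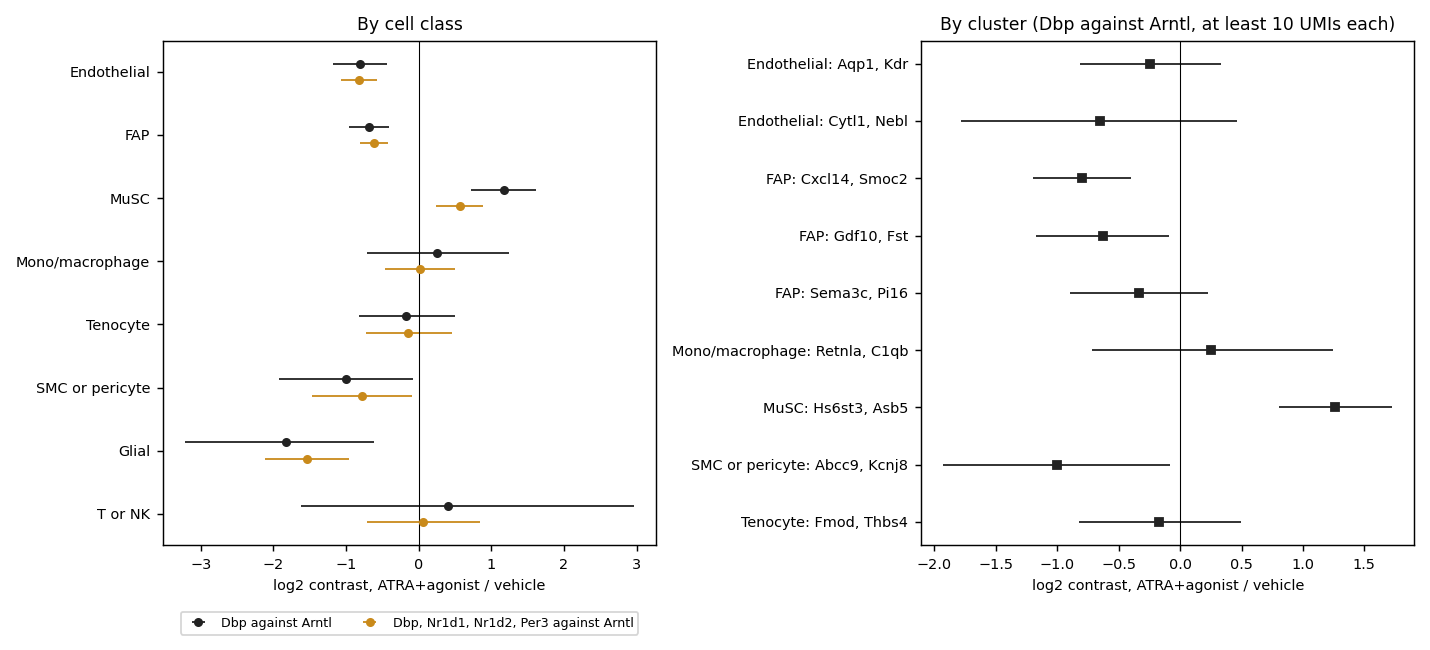
Log2 contrast of Dbp against Arntl (black) and of Dbp, Nr1d1, Nr1d2 and Per3 summed against Arntl (orange), ATRA+agonist over DMSO vehicle, by cell class on the left, and of Dbp against Arntl by cluster on the right for clusters with at least 10 UMIs of both genes in both libraries. Bars are exact 95% counting intervals, and the MuSC-like values (1.17 and 0.57) are right of 0 while the endothelial-like and FAP-like values are left of it.

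Genes that work beside the members were counted from lists. Of 11 paralogs, ROR receptors and PAR bZIP factors, 9 had enough UMIs in FAP-like cells. Of these, 1 was past 1.5-fold higher and 0 lower, against 3.01% and 6.31% of all genes, with a median of -0.05. The gene higher in FAP-like cells was Npas2, a paralog of Clock that also pairs with BMAL1, at 106 CPM against 66.4 CPM and a ratio of 0.68 (0.55 to 0.80). In MuSC-like cells, 1 of 8 was higher and 1 lower, against 6.43% and 4.61% of all genes, with a median of 0.04. Bhlhe41, a repressor of BMAL1-CLOCK, was the higher one, with a ratio of 0.88 (0.42 to 1.35). The lower one was Hlf, a PAR bZIP factor related to Dbp, at 21 and 50 UMIs and a ratio of -0.998 (-1.81 to -0.24). Hlf had a ratio of -0.52 (-0.63 to -0.40) in FAP-like cells, and its interval was below 0 in 4 of 7 classes. Tef, the other relative of Dbp, had an interval below 0 in 3 of 7 classes. They were smooth muscle or pericyte-like (-0.72, -1.40 to -0.07), tenocyte-like (-0.65, -1.08 to -0.25) and endothelial-like (-0.40, -0.66 to -0.14) cells. In MuSC-like cells the Tef ratio was 0.06 (-0.26 to 0.39). Neither Hlf nor Tef had an interval above 0 in MuSC-like cells, where that of Dbp was above 0.

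Nfil3, which encodes a repressor at D-box elements, had a ratio of 1.63 (1.10 to 2.16) in glial-like cells and -0.34 (-0.49 to -0.18) in FAP-like cells. The glial-like value was not split by cluster, and the makeup of that class differed between the libraries. Arntl2, a paralog of Arntl, had a ratio of -0.50 (-0.997 to -0.02) in endothelial-like cells. Ciart had under 50 UMIs in every class, and 77 and 69 over all kept cells. Of 13 kinases, ubiquitin ligases and partners of clock proteins, 13 were counted in endothelial-like and 11 in MuSC-like cells. In both classes 0 passed 1.5-fold, with medians of -0.11 and 0.03. Of all genes, 5.87% were higher and 4.60% lower in endothelial-like cells, and 6.43% and 4.61% in MuSC-like cells. The deacetylase gene Sirt1 had an interval below 0 in 3 of 8 classes, with -0.49 (-0.74 to -0.25) in MuSC-like cells. Timeless and Fbxl21 had no interval apart from 0 in the classes where they were counted.

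Of 12 genes known to be rhythmic in many tissues, 2 were past 1.5-fold lower and 0 higher in each of FAP-like and MuSC-like cells. The median was -0.14 in both. Of all genes, 6.31% were lower and 3.01% higher in FAP-like cells, and 4.61% and 6.43% in MuSC-like cells. Tsc22d3, which is also glucocorticoid-induced, was among the lower genes in both classes (-1.06 and -1.03). Leo1, a subunit of the PAF1 complex, had a ratio above 0 in 7 of 8 classes and an interval above 0 in 4. Wee1, a kinase of the G2 checkpoint and a target of BMAL1-CLOCK, had an interval below 0 in FAP-like cells (-0.61, -0.99 to -0.22) and tenocyte-like cells (-1.04, -2.19 to -0.05).

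Glucocorticoid-induced genes were counted because glucocorticoids follow a daily rhythm and act on Per1 and Per2. Fkbp5, which encodes a chaperone of the glucocorticoid receptor, was lower with ATRA+agonist in 8 of 8 classes, each with an interval below 0 and a median ratio of -1.11. Tsc22d3 (GILZ) was lower in 8 of 8 classes as well, with a median of -0.97. Zbtb16 had an interval below 0 in 7 of 8 classes and a median of -1.28. In MuSC-like cells Fkbp5 was at 62.7 CPM against 115 CPM, Tsc22d3 at 21.1 CPM against 43.0 CPM and Zbtb16 at 78.0 CPM against 173 CPM. The list did not share 1 direction in MuSC-like cells. There 5 of 10 intervals were below 0 and 3 above, against 12.3% and 14.1% of all genes, with a median of -0.14. Those above 0 were Per1, Dusp1 (0.34, 0.20 to 0.47), a phosphatase of MAP kinases, and Cdkn1a (0.38, 0.22 to 0.53), a cell cycle inhibitor. Dusp1 had an interval above 0 in 5 of 8 classes, and Dusp1 and Cdkn1a were named after their values were seen. Tsc22d3 is also on the list of rhythmic genes. Of the 10 listed genes, which include Per1 itself, 2 were past 1.5-fold lower and 0 higher in endothelial-like cells. The counts were 4 and 0 in FAP-like cells, 3 and 0 in MuSC-like cells and 6 of 9 and 0 in the smooth muscle or pericyte-like class. Of all genes in these 4 classes, in the same order, 4.60%, 6.31%, 4.61% and 7.29% were lower. The shares higher were 5.87%, 3.01%, 6.43% and 6.00%. The part of the listed genes in the Per2 difference was not tested.

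**Figure D4:**
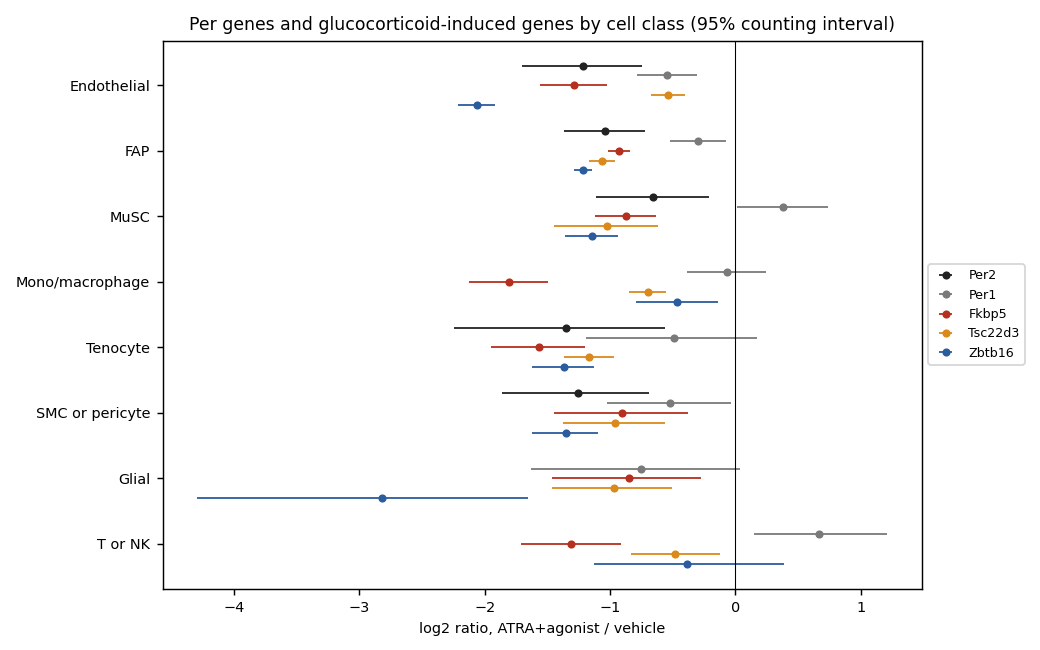
Log2 ratio (ATRA+agonist over DMSO vehicle) of Per2, Per1 and the glucocorticoid-induced genes Fkbp5, Tsc22d3 and Zbtb16 by cell class, drawn where a gene had at least 50 UMIs in the class, with exact 95% counting intervals. Fkbp5 and Tsc22d3 lie below 0 in all 8 classes and Per2 in the 5 where it is drawn, while Per1 lies above 0 in MuSC-like and T or NK cell-like cells.

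Immediate early and heat shock genes, which respond to tissue dissociation, also differed in some classes. In MuSC-like cells 3 of 11 were past 1.5-fold higher and 2 lower, against 6.43% and 4.61% of all genes. There 8 intervals were above 0 and 2 below 0, against 14.1% and 12.3% of all genes, with a median of 0.42. Many of these genes have high counts and therefore narrow intervals. Those past 1.5-fold higher there were Fos (0.96), Jun (0.66) and Junb (0.62), which were named after their values were seen. Ier2, under that fold, had a ratio of 0.54 (0.43 to 0.66) in MuSC-like cells. The heat shock genes Hspa1b and Hspa1a had -1.39 (-1.70 to -1.09) and -0.71 (-0.92 to -0.50). In the smooth muscle or pericyte-like class 0 of 11 were past 1.5-fold higher and 4 lower, against 6.00% and 7.29% of all genes. All 11 intervals were below 0 there, against 10.5% of all genes. Endothelial-like cells had 4 intervals above and 4 below 0, against 22.8% and 13.9% of all genes, with a median of 0.08. The part of these genes in the Per1 and Dbp values of MuSC-like cells was not tested.

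Finally, the pattern of levels over the 8 classes in both libraries (16 points) was described on the log2(CPM + 10) scale. Points of 1 library share its depth and handling, so the correlations carry no p-value. Among members, Nr1d1 and Dbp had a Pearson correlation of 0.934 and Nr1d1 and Nr1d2 of 0.892, while Arntl and Dbp had -0.255. Of 1543 genes with at least 50 UMIs at every point, those most like Dbp were Hnrnph1 (0.874), Zfp36l1 (0.843), P4ha1 (0.842), Kat6b (0.820) and Kcnq1ot1 (0.813). Arntl was most like Prpf4b (0.907), Rb1cc1 (0.883), Bptf (0.860), Rsbn1 (0.860) and Rbm6 (0.860). Genes like Per1 included Clk1 (0.907), Braf (0.865), Rock1 (0.861) and Mif (0.846).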

How the data were processed

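The authors deposited unnormalized UMI counts for each gene in each called cell barcode. They had aligned the reads of the 10x libraries to mm10 (GRCm38) with Cell Ranger 7.2.0. Matrices summed to 65197625 UMIs in 10444 barcodes (ATRA+agonist) and 109343486 in 17394 (DMSO vehicle). The annotation release was not given in the sources used here.

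Cells with 300 to 5000 genes, under 20% mitochondrial UMIs and under 0.25% Hbb- UMIs were kept. The 7.5% with the highest score against artificial doublets were removed per library. After scaling every cell to 10000 UMIs and taking logs, 2000 variable genes without the members and listed genes gave 30 principal components, 20 neighbors and Louvain clusters (resolution 0.8, 26 clusters; Python 3.11.15, scikit-learn 1.9.0, igraph 0.11.9, scipy 1.17.1). Clusters were named from at least 3 markers at least 2-fold higher, and remained unnamed where another class had at least 75% of that share. The naming thresholds were chosen with the clusters in view. UMIs were summed per class and library. The interval procedures were tested on simulated data, drawn as independent Poisson counts. That is the model the intervals assume, so spread between cells was not tested.

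Members and lists were chosen with earlier results of these data known. Named genes were all members with at least 50 UMIs in a class, the 3 genes per list with the largest absolute median ratio over classes, Npas2, Tef, Ciart, Nfil3, Bhlhe41 and Fkbp5, and the 5 genes most correlated with each of Dbp, Arntl and Per1. Of these correlated genes 1, and the leading genes of 2 clusters, are not reported here. The alternatives were other cell filters, cluster resolutions, class assignment, scaling, thinning, minimums, folds and gene sums.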

Additional observations from a re-analysis of the deposited data

Results flagged for a closer look

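Several genes had counting intervals on opposite sides of 0 in different cell classes, which is why they are listed. The difference between classes was not tested, because each class has 1 value from 1 library per group. The Dbp to Arntl contrast was 1.17 in MuSC-like cells, but -0.81 in endothelial-like, -0.69 in FAP-like, -1.83 in glial-like and -1.002 in the smooth muscle or pericyte-like class. Of the glial-like clusters, the larger had a contrast of 0.75 (-1.17 to 2.70), on the other side of 0 from the class. Thinning turned the sign of the glial-like contrast, to 1.18. For Dbp alone the log2 ratio was 0.90 in MuSC-like and -0.43 in endothelial-like cells. Without the cluster led by Cd274 and Gbp4, the endothelial-like interval of Dbp included 0 (-0.33, -0.67 to 0.02). Arntl had -0.27 in MuSC-like cells, against 0.39 in endothelial-like, 0.48 in FAP-like and 0.97 in glial-like cells. In the largest endothelial-like cluster the Arntl ratio was 0.08 (-0.21 to 0.39). Per1 had 0.38 in MuSC-like and 0.66 in T or NK cell-like cells, against -0.55 in endothelial-like, -0.30 in FAP-like cells and -0.52 in the smooth muscle or pericyte-like class. The T or NK cell-like Per1 value turned to -0.55 after thinning. Without the smaller MuSC-like cluster, the MuSC-like interval of Per1 included 0 (0.35, -0.01 to 0.72). Cry1 had 0.32 in FAP-like cells, against -0.31 in endothelial-like and -0.39 in MuSC-like cells. The sign of the endothelial-like Cry1 value also turned after thinning. Nr1d1 had 0.55 in MuSC-like and 0.54 in tenocyte-like cells, against -0.39 in endothelial-like and -0.92 in glial-like cells. The glial-like Nr1d1 value was not split by cluster.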

How the results depend on the processing

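No paired analysis was possible because there is 1 library per group. The Dbp to Arntl contrast was recomputed 106 times over classes and settings, and 101 values stayed within the interval of the reported one. It was above 0 under all 14 settings in MuSC-like cells (0.42 to 1.90), and below 0 under all 15 in endothelial-like (-0.90 to -0.58) and all 13 in FAP-like cells (-1.41 to -0.59). The endothelial-like cluster led by Cd274 and Gbp4 and the shallowest one were left out 1 at a time, not together. Thinning each cell to 1000 UMIs gave -1.41 in FAP-like and 1.90 in MuSC-like cells and reversed the sign in glial-like cells (1.18). Summing Dbp, Nr1d1, Nr1d2 and Per3 gave 0.57 against Arntl and 0.42 against Arntl with Npas2 in MuSC-like cells. Both contrasts include Dbp itself. Of 776 member ratios, 748 stayed within the interval of the reported value and 2 reversed, both after thinning (Cry1 in endothelial-like cells, 0.057, and Per1 in T or NK cell-like cells, -0.55).

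The 7 pairs of member and class past 1.5-fold lower became 11 with a mitochondrial limit of 10%, 11 with at least 500 genes, 18 after thinning, 12 with the mean over cells, 12 with no minimum of UMIs, 22 at a smaller fold and 4 at 2-fold. The 3 pairs past 1.5-fold higher became 9 after thinning, 10 at the smaller fold and 0 at 2-fold. The cause of these changes was not tested, other than that thinning leaves few UMIs per member. The settings that leave out a MuSC-like or an endothelial-like cluster were chosen after seeing the data. With 1 pooled library per group, the difference between mice is unknown, and a class with few UMIs limits what could be seen.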

Other observations

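In cell classes with too few cells for a comparison, the clock genes had levels that differed by lineage. B cell-like cells with ATRA+agonist (639 cells, 4139471 UMIs) had Arntl at 69.1 CPM (61.3 to 77.6) and Per1 at 82.9 CPM (74.3 to 92.1). In the same cells Nr1d1 had 3 UMIs, or 0.725 CPM (0.149 to 2.12), and Dbp had 15 UMIs, or 3.62 CPM (2.03 to 5.98). Neutrophil-like cells with DMSO vehicle (148 cells) had Clock at 70.6 CPM (57.6 to 85.6), 3 Nr1d1 UMIs and 0 Dbp UMIs, with an exact interval up to 2.53 CPM. Perineurial-like cells, which ensheath nerves, had Dbp at 47.3 CPM (27.0 to 76.8) with ATRA+agonist (44 cells) and 73.3 CPM (54.9 to 95.9) with DMSO vehicle (109 cells). Fiber-like barcodes, nearly all from the ATRA+agonist library (227 against 1), had Dbp at 45.5 CPM (26.5 to 72.8) and Nr1d1 at 42.8 CPM (24.5 to 69.5).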
